A study of Rattus norvegicus with 48 samples.

Results

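MiR-140 and miR-455 are miRNAs known from cartilage. Their 4 mature products, rno-miR-140-3p, rno-miR-140-5p, rno-miR-455-3p and rno-miR-455-5p, were followed through 48 small RNA libraries of rat serum and ulna bone. They were chosen by name, with earlier results of these data known. They are 4 of the 763 mature miRNAs listed in every library, 629 of which had a read somewhere. The rats were male Zucker Diabetic Fatty (ZDF, fa/fa) animals, which become diabetic and obese through a homozygous mutation of the leptin receptor, and lean +/+ animals, called wild-type (WT). All of them, controls included, ate a chow rich in fat and carbohydrate and carried a subcritical defect at the midshaft of the femur. Treatment or placebo was given for 12 weeks, and samples were taken at the end of it. The 7 serum groups were placebo and parathyroid hormone (PTH), with 5 libraries each in both genotypes, anti-sclerostin antibody, with 4 libraries in both genotypes, and insulin, with 4 libraries in ZDF rats alone. The 4 bone groups were placebo and PTH in both genotypes, with 4 ulna libraries each. The ZDF line lacks leptin signalling in every tissue, so that obesity and diabetes come together in all ZDF groups. Labels gave each library as a separate sample without an animal number, so libraries are the units of the tests below. In most of the fits over all miRNAs the spread was that of miRNAs of like abundance, not of the single miRNA.

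MiRNAs are short RNAs that guide Argonaute proteins to messenger RNAs through the seed, bases 2 to 8 of the miRNA. Each hairpin precursor can give a 5p and a 3p arm, and the 2 arms recognise different targets. MiR-140 is made in chondrocytes under the control of SOX9, the transcription factor that sets the chondrocyte fate. It is known for restraining the aggrecan-cleaving protease Adamts5 and the histone deacetylase Hdac4, and mice without it have short bones. MiR-455 is likewise expressed in developing and articular cartilage and is known as a modulator of TGF-beta signalling. An ulna holds articular and growth plate cartilage beside mineralised bone and marrow, so both were looked for in bone first and then in serum. In bulk RNA, fewer cells of a type and less RNA per cell cannot be told apart.

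The sequences of 3 of the 4 members were in the RefSeq table (build GRCr8). They are shown because their seeds, in capitals, set the 2 arms of miR-140 and miR-455-3p apart from one another.
rno-miR-140-5p: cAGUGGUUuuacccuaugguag
rno-miR-140-3p: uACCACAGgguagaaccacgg
rno-miR-455-3p: gCAGUCCAcgggcauauacacu
The 3 seeds were distinct, and no other mature rat miRNA of that table had any of them. The nearest other mature miRNA differed from each by 6 mismatches in the best ungapped placement. The hairpin Mir140 lies at chr19:52375293-52375391 on the plus strand, inside the span of Wwp2, a ubiquitin ligase gene. Its 99 bases are printed with both mature arms in capitals, the 5p arm first.
Mir140: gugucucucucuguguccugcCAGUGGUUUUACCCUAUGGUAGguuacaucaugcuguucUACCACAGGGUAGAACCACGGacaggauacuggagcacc
Mir455, of 78 bases at chr5:81704834-81704911 on the plus strand, lies inside the span of Col27a1, which encodes a fibrillar collagen of cartilage. Mature rno-miR-455-5p is given by name only.

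Depth set how well each member could be measured. Serum libraries held 28015 to 205664 reads on miRNAs and bone libraries 41627 to 1398702. MiR-140-3p never fell under 729 reads. In serum, miR-140-5p had a median of 20 reads, and 5 of 32 sera had fewer than 10. MiR-455-3p had 1 to 17 reads in serum and miR-455-5p 0 to 24, so differences in these counts were within reach of counting error. No read of miR-455-5p was found in 4 sera, where a count of 0 allowed up to 32.3 to 107 CPM (reads scaled to a common total of miRNA reads per library). Bone libraries carried the miRNAs of several tissues: the 5 mesenchymal markers summed to 48682 to 281371 CPM in bone and 2237 to 76750 in serum, and the 6 striated muscle markers to 48117 to 457269 CPM in bone and 123 to 45327 in serum. The 2 liver markers reached at most 11.0 CPM in any bone. Levels are TMM CPM, that is CPM corrected by TMM factors for composition, computed within each tissue. Serum and bone levels set side by side, and permutation tests between the tissues, thus lack a common TMM scaling.

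MiR-140-3p was the abundant member everywhere. It ranked between the 3rd and the 19th most read miRNA in the 32 sera and between the 4th and the 24th in the 16 bones. Its median level was 27509.8 CPM in serum (13656 to 56842) and 15137 CPM in bone (7795 to 39845). Which cells gave the miR-140-3p of serum was not tested, so its level there is no measure of cartilage. MiR-140-5p, from the other arm of the same hairpin, had a median of 1412 CPM in bone (458 to 2896) and of 243 CPM in serum (48.9 to 605). The miR-455 arms were rarer: miR-455-5p lay between 164 and 407 CPM in bone, and miR-455-3p ran from 35.0 to 1808 CPM, the widest of the 4 in relative terms.

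**Figure D1:**
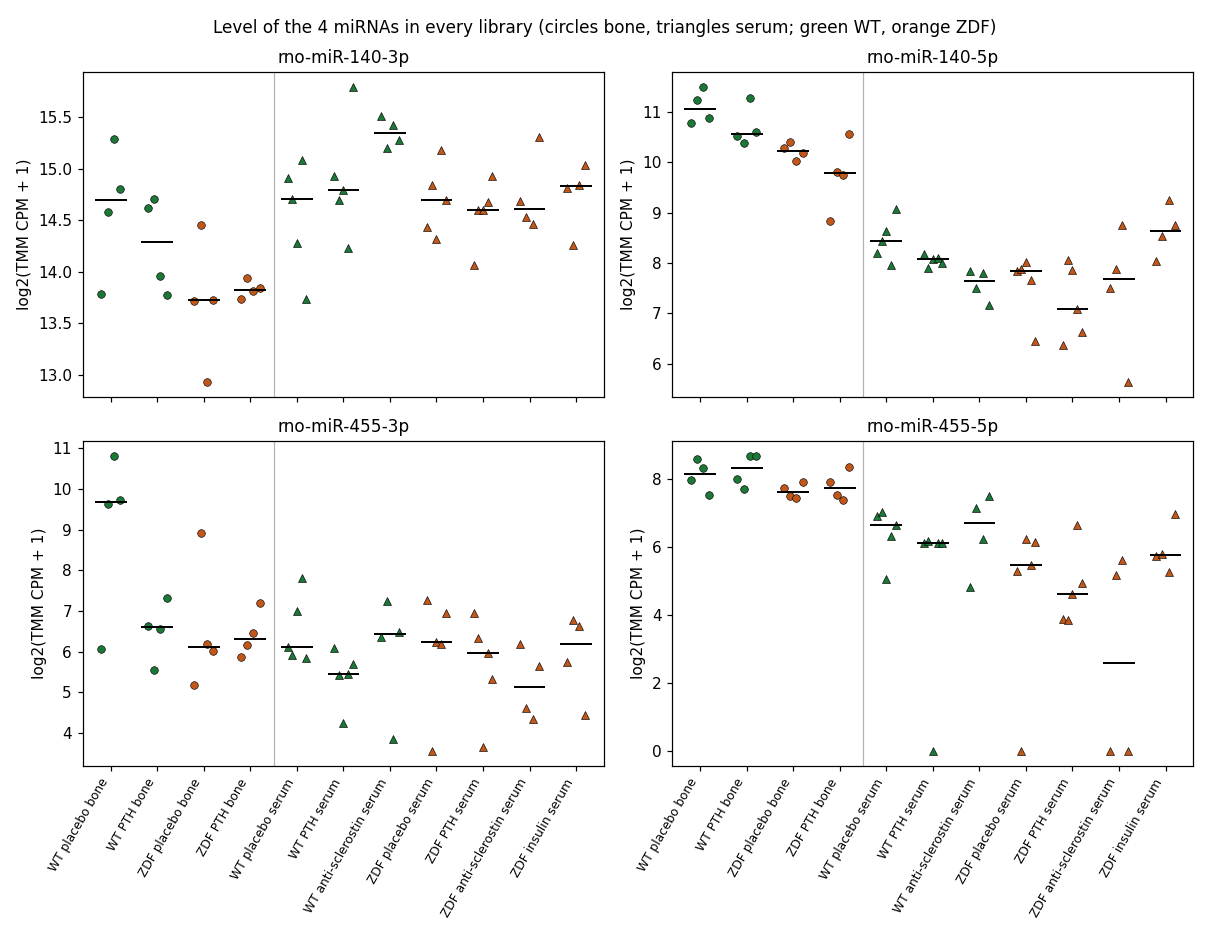
Level of each member in every library, as log2(TMM CPM + 1) on the vertical axis, with groups along the horizontal axis, 1 symbol per library (circles bone, triangles serum, green WT, orange ZDF) and a bar at the median of the plotted values. MiR-140-5p and miR-455-5p sit higher in bone than in serum, while miR-455-3p is high in 3 of 4 WT placebo bones and in 1 ZDF placebo bone.

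In bone, the group means of miR-140-5p ran in the order WT placebo (2231 ± 523 CPM, SD, n = 4), WT PTH (1705 ± 513), ZDF placebo (1199 ± 131) and ZDF PTH (929 ± 431). MiR-140-3p followed with 26740.2 ± 10660 CPM in WT placebo, 20402 ± 6436 in WT PTH, 14578 ± 826 in ZDF PTH and 14287 ± 6022 in ZDF placebo bone. Means of miR-455-3p were 882 ± 715 CPM in WT placebo, 164 ± 215 in ZDF placebo, 98.5 ± 45.9 in WT PTH and 90.3 ± 38.8 in ZDF PTH bone. For miR-455-5p the order was WT PTH (316 ± 103 CPM), WT placebo (282 ± 86.0), ZDF PTH (227 ± 71.1) and ZDF placebo (199 ± 30.9). A step between neighbours exceeded the larger of their SDs in 2 places, from WT placebo to WT PTH for miR-140-5p and from WT placebo to ZDF placebo for miR-455-3p. All other neighbours in bone lay within their spread, and so did all neighbours among the 7 serum groups for each member.

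The arms of miR-140 were split differently in the 2 tissues. In serum, 96.2% to 99.9% of miR-140 reads were 3p, a pooled ratio of 106 reads of 3p to 1 of 5p. In bone, 86.6% to 96.7% were 3p, a pooled ratio of 12.9. With 0.5 reads added to each arm, the log2 ratio of 3p to 5p ran from 2.68 to 4.89 in bone and from 4.66 to 9.38 in serum, so that only the ends of the ranges met. The 3p arm led in every one of the 48 libraries. Ratios within a library need no scaling between libraries, but ligation and amplification can favour an arm, and that part was not tested.

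The arms of miR-455 did not keep a fixed order. In 12 of 16 bones the 5p arm led, and 14.3% to 34.8% of miR-455 reads were 3p. In the other 4 bones, WT placebo 2, 3 and 4 and ZDF placebo 2, the 3p arm led with 67.6%, 85.1%, 82.3% and 73.3%. The 5p level of these 4 bones, between 177 and 382 CPM, lay within the range of the remaining bones. The 2 arms thus parted in bone through the 3p arm, and the Pearson r between their log2 levels was 0.26 over the 16 bones, against 0.55 between the arms of miR-140. In serum 3p led in 16 of 32 libraries, on 197 reads of 3p and 187 of 5p in all.

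**Figure D2:**
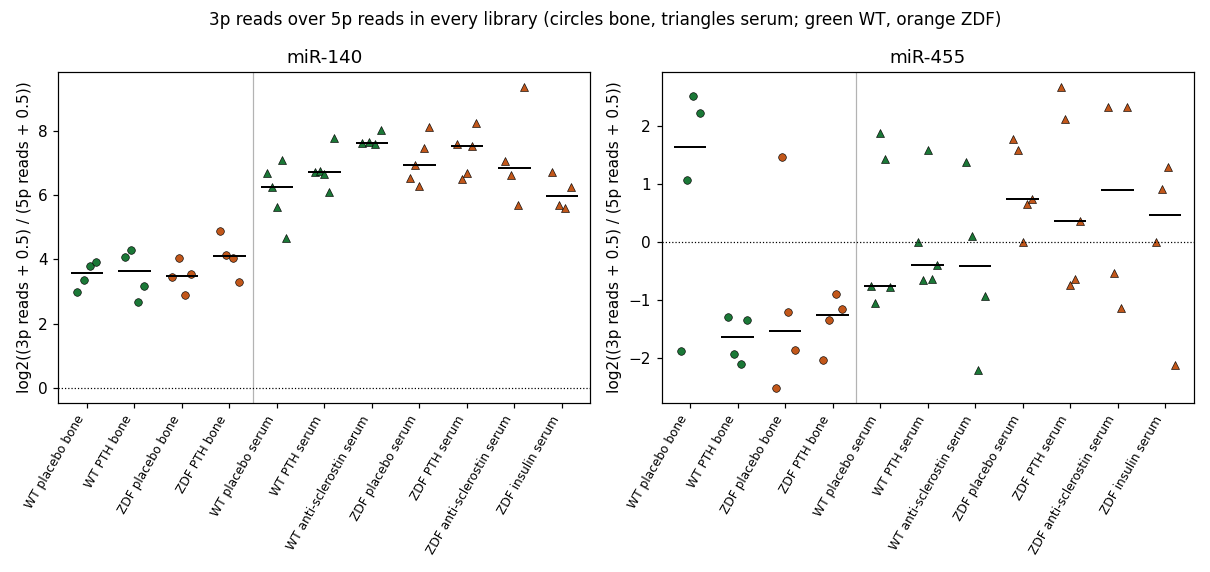
Ratio of 3p to 5p reads in every library, as log2 with 0.5 reads added to each arm, for miR-140 (left) and miR-455 (right), with 1 symbol per library (circles bone, triangles serum, green WT, orange ZDF), a bar at the group median and a dotted line at equal arms. MiR-140 lies above 0 in all 48 libraries and higher in serum, whereas 4 bones stand above 0 for miR-455 and the other 12 below it.

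Bone and serum were compared in each of the 4 groups measured in both tissues, to ask where the members were enriched. MiR-140-5p was higher in bone by 2.53 ± 0.48 (log2 fold change ± SE) in WT placebo, 2.72 ± 0.42 in ZDF placebo, 2.20 ± 0.60 in WT PTH and 2.70 ± 0.53 in ZDF PTH rats. The largest FDR of the 4 was 0.00122 (edgeR quasi-likelihood test, Benjamini-Hochberg), and the groups overlapped in none of them (exact permutation p = 0.00794 each, the smallest possible). The share of all miRNAs without overlap between the tissues was not counted. MiR-455-5p was higher in bone as well, by 1.53 ± 0.53, 2.31 ± 0.54, 1.96 ± 0.65 and 2.86 ± 0.62 in the same order, with FDR up to 0.0116.

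MiR-455-3p was higher in bone in WT placebo rats (3.08 ± 0.52, FDR = 3.72e-08) and in ZDF placebo rats (1.11 ± 0.51, FDR = 0.0538). The second call was lost without ZDF placebo bone 2 (−0.19, FDR = 0.776), with DESeq2 (0.93, FDR = 0.293) and with filterByExpr, which sets a higher minimum count (0.99, FDR = 0.208). Under PTH the difference was 0.63 ± 0.73 in WT (FDR = 0.455) and 0.80 ± 0.60 in ZDF rats (FDR = 0.249). In WT PTH rats miR-455-3p passed with totals of miRNA reads (1.26, FDR = 0.148) and, in an analysis added after the depths were seen, without the 2 WT PTH bones of fewer than 100000 miRNA reads (1.51, FDR = 0.0459). It also passed there without WT PTH bone 1 or 2 or WT PTH serum 1 or 3 (1.03 to 1.29, FDR = 0.0976 to 0.174). In ZDF PTH rats it passed with all groups of the tissue in 1 fit (1.03, FDR = 0.161). MiR-140-3p went the other way, lower in bone by −0.78 ± 0.34 in ZDF placebo (FDR = 0.0409) and −1.16 ± 0.58 in WT PTH rats (FDR = 0.0890). Its values were 0.02 ± 0.42 in WT placebo (FDR = 0.973) and −0.57 ± 0.43 in ZDF PTH rats (FDR = 0.261). The ZDF PTH difference passed with RLE (−0.63, FDR = 0.191), totals of miRNA reads (−0.85, FDR = 0.0928), DESeq2 (−0.63, FDR = 0.0741) and filterByExpr (−0.60, FDR = 0.108). The 2 calls for miR-140-3p were weak. Leaving out ZDF placebo bone 3 or ZDF placebo serum 4 gave −0.56 and −0.54 (FDR = 0.230 and 0.272), and in WT PTH rats leaving out any library other than WT PTH bone 2 ended the call (−0.91 to −0.46, FDR = 0.221 to 0.506). With all WT PTH libraries each of the 4 members lay below its own leave-one-out range. MiR-140-3p stood at −1.16 against −0.95 to −0.46, and miR-140-5p at 2.20 against 2.43 to 2.77. In that comparison the median of all miRNAs moved from −0.05 to 0.55 with totals of miRNA reads. The part of scaling in this shift was not tested.

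The direction for miR-140-3p depended on what was held constant. MiRNA reads made up 1.58% to 21.5% of all reads in bone and 0.529% to 4.09% in serum. When levels were scaled to all reads miR-140-3p was higher in bone by 2.42 in WT placebo, 2.17 in ZDF placebo, 0.27 in WT PTH and 1.75 in ZDF PTH rats. That scaling moved the median of all miRNAs up by 1.42 to 1.93. The main figures thus hold under TMM scaling of miRNA reads and not per unit of RNA. Under TMM the medians of all tested miRNAs were 0.38 in WT placebo, 0.99 in ZDF placebo, −0.05 in WT PTH and 0.59 in ZDF PTH rats. The values of miR-455-3p in ZDF placebo (1.11) and ZDF PTH rats (0.80) were near these medians. In all, 3 of 4 members differed between bone and serum in WT placebo rats, where 64.8% of 509 tested miRNAs did, and 4 of 4 in ZDF placebo rats, where 69.0% of 504 did. Under PTH 3 of 4 differed in WT rats, against 59.3% of 519 miRNAs, and 2 of 4 in ZDF rats, against 70.8% of 500. These shares of members were close to the background, so a difference between tissues was not particular to them.

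ZDF and WT bone under placebo were compared for the effect of the diabetic genotype. MiR-140-5p read 1762, 2394, 2896 and 1869.9 CPM in the 4 WT bones and 1238, 1355, 1045 and 1156 CPM in the 4 ZDF bones. The highest ZDF bone stayed under the lowest WT bone. The log2 fold change was −0.91 ± 0.34 (edgeR, FDR = 0.148), and the exact permutation p was 0.0286, the smallest that 4 against 4 allows. The share of all miRNAs that separated these bones was not counted. MiR-140-3p read 14049, 24533, 39845 and 28533 CPM in WT and 13434, 22372, 7795 and 13547 CPM in ZDF bones, which overlapped. It differed by about as much, −0.92 ± 0.39, but with an FDR of 0.218 and an exact permutation p of 0.0571 it did not pass. It passed with RLE size factors (FDR = 0.136), totals of miRNA reads (FDR = 0.158) and DESeq2 (FDR = 0.126). Its 4 highest values came from WT 2, 3 and 4 and ZDF 2. Among the placebo bones these also held the most miRNA reads and striated muscle markers. The part of depth and muscle was not tested. The 5 leukocyte markers summed to 4240 to 5303 CPM in the ZDF and 5888 to 8311 CPM in the WT placebo bones, without overlap. The 2 endothelial markers summed to 22323 to 42953 CPM and to 18109 to 22773 CPM. Their part in the difference was not tested.

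MiR-455-3p read 65.8, 799, 1808 and 854 CPM in the WT placebo bones and 35.0, 486, 72.3 and 64.0 CPM in the ZDF placebo bones. High levels were thus found in WT 2, 3 and 4 and in ZDF 2, and the groups overlapped at both ends. The log2 fold change was −2.36 ± 0.72 (FDR = 0.104), while the exact permutation p was 0.0857. MiR-455-5p read 245, 382, 316 and 184 CPM in WT and 210, 177, 171 and 238 CPM in ZDF bones, a difference of −0.52 ± 0.37 (FDR = 0.507). In this comparison 2 of 4 members passed FDR < 0.2, both lower in ZDF bone, where 12.6% of the 231 tested miRNAs passed and 18 of those 29 were lower.

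These calls turned on single libraries. For miR-140-5p the log2 fold change stayed between −1.05 and −0.79 when 1 library was left out, but the FDR rose to 0.319 without ZDF 1, 0.320 without ZDF 4, 0.205 without WT 2 and 0.220 without WT 3. For miR-140-3p the FDR fell to 0.0235 without ZDF 2, 0.0334 without WT 1 and 0.198 without WT 2, with log2 fold changes of −1.23, −1.20 and −1.01. MiR-455-3p moved from −3.98 without ZDF 2 (FDR = 1.14e-09) to −1.84 without WT 3, where its mean level fell below the filter on mean CPM and no FDR was given. Without WT 1, the WT bone with little miR-455-3p, it was −2.83 (FDR = 0.00270). Both calls were also lost with no filter beyond 1 read (FDR = 0.349 for miR-140-5p and 0.260 for miR-455-3p) and with filterByExpr (FDR = 0.205 and 0.248), and that of miR-140-5p with all 4 bone groups in 1 fit (FDR = 0.336).

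**Figure D3:**
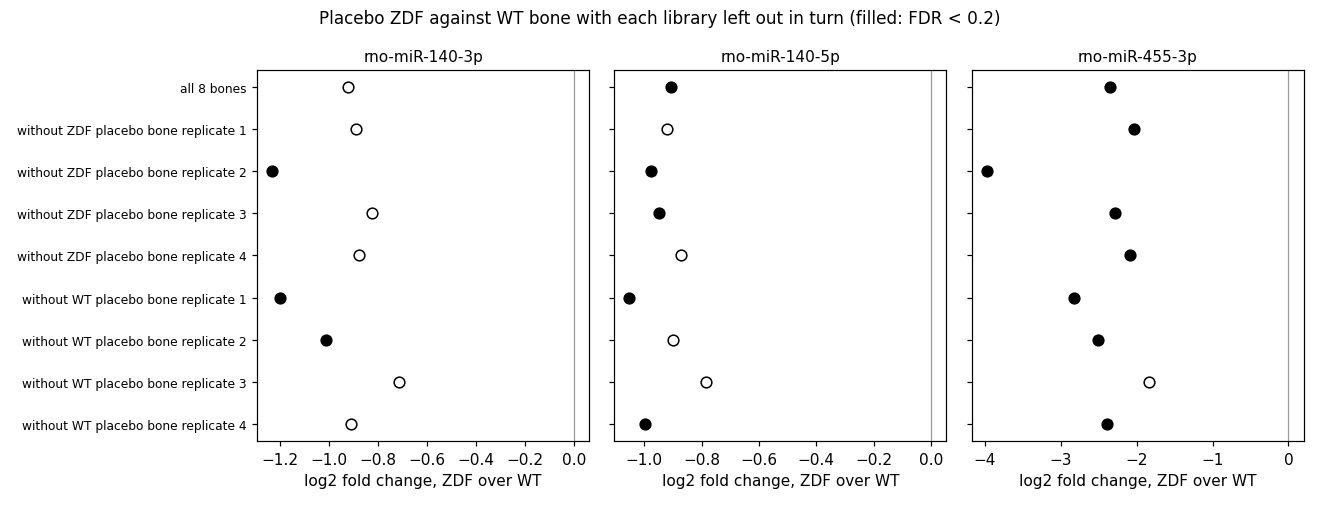
Log2 fold change of 3 members between ZDF and WT placebo bone (horizontal axis, negative values lower in ZDF; each panel has its own range) with all 8 bones and with each library left out in turn (rows); filled circles have FDR < 0.2. All values lie below 0, from −1.23 to −0.71 for miR-140-3p, −1.05 to −0.79 for miR-140-5p and −3.98 to −1.84 for miR-455-3p.

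The same genotypes were compared under PTH, with other rats. MiR-140-5p read 1468, 1339, 2463 and 1548 CPM in WT PTH and 458, 889, 864 and 1503 CPM in ZDF PTH bones, and 1 ZDF bone overlapped with the WT bones. The difference was −0.93 ± 0.48 (FDR = 0.328, exact permutation p = 0.0857). In CPM of miRNA reads without TMM scaling the groups did not overlap (−1.11, exact permutation p = 0.0286). It passed without ZDF PTH bone 4 (−1.29, FDR = 0.143). It also passed without the 2 shallow WT PTH bones, an analysis added after the depths were seen (−1.05, FDR = 0.0560). MiR-140-3p read 25117, 26696, 15852 and 13943 CPM in WT PTH and 13636, 15640, 14401 and 14633 CPM in ZDF PTH bones (−0.59 ± 0.43, FDR = 0.518). Without TMM scaling its groups did not overlap either (−0.59, exact permutation p = 0.0286). The 2 higher WT bones were the 2 with fewer than 100000 miRNA reads, and without them the difference was 0.03 (FDR = 0.946). MiR-455-3p (−0.22 ± 0.57) and miR-455-5p (−0.55 ± 0.51) did not pass either (FDR = 0.861 and 0.658). In all, 0 of 4 members passed with edgeR and 1 of 4 with DESeq2, and 0 of 4 had an unadjusted p under 0.05, while 5.36% of 261 tested miRNAs passed with edgeR. Those were 14 miRNAs, and under other settings, DESeq2 among them, 6 to 74 passed. With a library left out 8 to 58 did.

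PTH was then compared with placebo within each genotype, to ask how bone responded to an anabolic treatment. MiR-455-3p fell in WT bone. It read 65.8, 799, 1808 and 854 CPM under placebo and 97.9, 45.4, 93.5 and 157 CPM under PTH. All 4 PTH bones lay below 3 of the placebo bones, and 3 of the 4 lay above placebo bone 1. The log2 fold change was −3.09 ± 0.57 (FDR = 2.69e-05), and the call held without any single library. The exact permutation p was 0.114, because of placebo bone 1. The fit gave miRNAs of like abundance in this comparison a shared spread, and miR-455-3p varied more than that among the placebo bones. The PTH values rested on 2 to 48 reads per library, and the placebo bones are those that served in the comparison of genotypes.

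The other 3 members did not pass in WT bone: miR-140-3p changed by −0.31 ± 0.47 (FDR = 0.814), miR-140-5p by −0.36 ± 0.50 (FDR = 0.793) and miR-455-5p by 0.22 ± 0.51 (FDR = 0.886). Thus 1 of 4 members passed, against 14.2% of 387 tested miRNAs. Without the 2 shallow WT PTH bones miR-140-3p passed too (−1.004, FDR = 0.172). In ZDF bone 0 of 4 members and 0% of 569 tested miRNAs passed with edgeR, 42 miRNAs had an unadjusted p under 0.05, and DESeq2 called 1 miRNA, which was no member. MiR-455-3p read 57.3, 71.0, 87.5 and 146 CPM in the ZDF PTH bones, against 35.0, 486, 72.3 and 64.0 CPM under placebo (−0.90 ± 0.57, FDR = 0.672). Without ZDF placebo bone 2 its direction turned to 0.54, and it passed at −1.26 without ZDF PTH bone 4 and at −1.24 without ZDF placebo bone 1 (FDR = 0.1995 and 0.198). MiR-140-5p changed by −0.42 ± 0.33 (FDR = 0.694) and passed without ZDF PTH bone 4 (−0.75, FDR = 0.175). With a library left out, 0 to 52 of all miRNAs passed in this comparison.

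The response to PTH was compared between genotypes by an interaction term over the 4 bone groups. For miR-455-3p the estimated fall under PTH was smaller in ZDF (−0.90) than in WT bone (−3.09). The interaction was 2.14 ± 0.70 (FDR = 0.113), and 1 of 4 members passed against 3.03% of 264 tested miRNAs. In this fit the spread followed abundance alone and not miR-455-3p itself, and no permutation test was run on the term. The call was lost when any of 9 of the 16 bones was left out, with values of 2.19, 1.52 and 2.16 without WT placebo 2, 3 and 4, 2.23 and 1.96 without WT PTH 1 and 2, 1.82, 1.91 and 1.88 without ZDF placebo 1, 3 and 4, and 1.76 without ZDF PTH 4. RLE scaling, totals of miRNA reads, DESeq2, filterByExpr and no filter beyond 1 read each gave no call (FDR = 0.216 to 0.973). FDR values of the other members were 0.972 to 0.995.

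The 4 bones with high miR-455-3p had other features in common. They held 389490, 574989, 952131 and 1398702 miRNA reads, which made up 10.7% to 21.5% of all reads, and the other 12 bones held 41627 to 971036 reads, or 1.58% to 12.6%. The 6 striated muscle markers summed to 125378 to 457269 CPM in the 4 bones and to 48117 to 177891 CPM in the other 12. ZDF PTH bone 4 held 971036 miRNA reads and 146 CPM of miR-455-3p. In WT PTH bones, where miR-455-3p was low, the muscle markers summed to 48117 to 69184 CPM and the libraries held 41627 to 282285 miRNA reads. In ZDF PTH bones miR-455-3p was low too, at 57.3 to 146 CPM. There the muscle markers summed to 128794 to 177891 CPM, above the 125378 CPM of WT placebo bone 2. The part of tissue composition and depth in the difference was not tested.

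The miRNAs most like each member over the 16 bones were found by Pearson r of log2(TMM CPM + 1) among 250 miRNAs. For miR-455-3p these were miR-149-5p (r = 0.92), miR-125b-5p (0.91) and miR-214-3p (0.89). MiR-149-5p reached 2210 to 3660 CPM in the 4 bones with high miR-455-3p and 363 to 1227 CPM in the other 12, and miR-125b-5p 18827 to 41367 CPM against 6881 to 18796 CPM. MiR-214-3p, which is known from the Dnm3os transcript of mesenchymal cells, ranged from 1098 to 4343 CPM and from 192 to 1265 CPM. The 5 mesenchymal markers, miR-214-3p among them, did not rise with it as a sum. They summed to 48682 to 78702 CPM in the 4 bones and to 61325 to 281371 CPM in the other 12. For miR-140-5p the most alike were miR-199a-5p (0.86), also made from Dnm3os, miR-339-5p (0.82) and miR-18a-5p (0.81). MiR-140-3p went with miR-342-3p (0.92), miR-328a-3p (0.77) and miR-125a-5p (0.76), and miR-455-5p less closely with miR-199a-5p (0.68), miR-451-5p (0.68) and miR-223-3p (0.67). Between members r was 0.69 for miR-140-3p with miR-455-3p and 0.61 for miR-140-5p with miR-455-3p. The libraries share depth and tissue makeup, and these r values are descriptions.

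**Figure D4:**
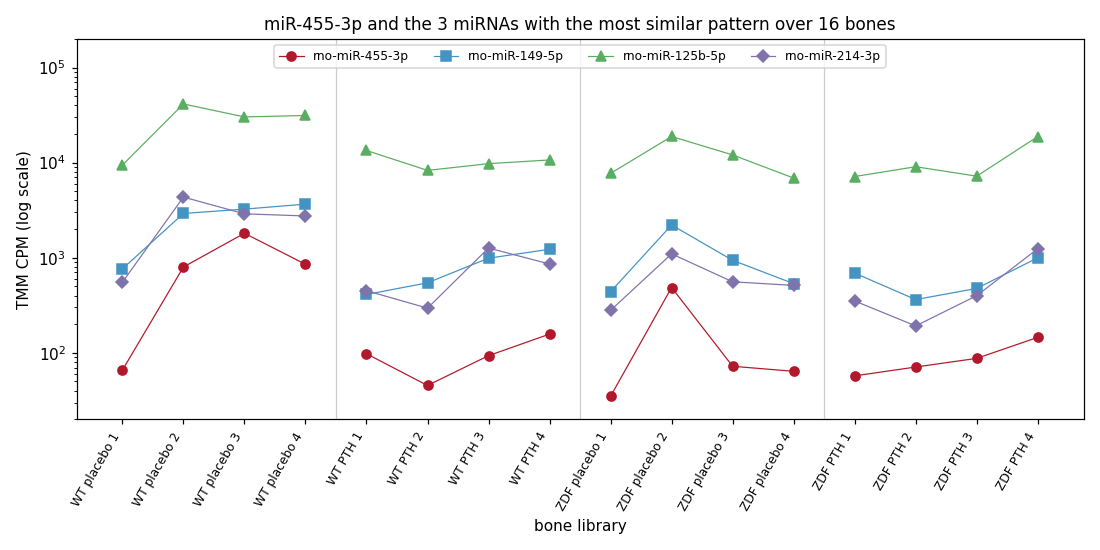
Level in TMM CPM (logarithmic vertical axis) of miR-455-3p and of the 3 miRNAs most like it in each of the 16 bone libraries (horizontal axis), with lines joining libraries of a group to guide the eye. All 4 miRNAs peak in WT placebo bones 2 to 4, and in the ZDF placebo group each is highest in bone 2.

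In serum no member passed in ZDF against WT placebo rats, where 10.0% of 370 tested miRNAs did. MiR-140-5p read 293, 348, 399.5, 248 and 538 CPM in WT and 229.5, 236, 260.1, 201 and 87.2 CPM in ZDF sera. The WT sera lay above the ZDF sera but for WT 4, at 248 CPM, which was below 1 ZDF serum. The log2 fold change was −0.93 ± 0.46 (FDR = 0.313), and the exact permutation p was 0.0159. These levels came from 19 to 77 reads in each WT serum and 5 to 35 in each ZDF serum. MiR-140-3p averaged 27149 ± 6662 CPM (SD, n = 5) in ZDF and 25119 ± 8428 CPM in WT sera, a difference within their spread (exact permutation p = 0.611). Reads of miR-455-3p numbered 1 to 10 (ZDF) and 6 to 17 (WT), and those of miR-455-5p 0 to 10 and 4 to 24 (FDR = 0.883 and 0.436). The estimate for miR-140-5p was thus close to that in placebo bone (−0.91), where it passed, and the difference between the tissues was not tested.

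Insulin was given to ZDF rats alone and compared with ZDF placebo. MiR-140-5p rose. It read 261, 368, 605 and 432 CPM in insulin-treated and 229.5, 236, 260.1, 201 and 87.2 CPM in placebo sera, without overlap, although the lowest treated serum exceeded the highest placebo serum by under 1 CPM. The log2 fold change was 0.94 ± 0.42 (FDR = 0.193), and the exact permutation p was 0.00794, the smallest possible. On plain CPM without TMM the difference was 0.69 on the log2 scale and the exact permutation p 0.0873. The call was lost without insulin serum 3 (0.75, below the filter on mean CPM), insulin serum 4 (0.96, FDR = 0.261), placebo serum 4 (0.93, FDR = 0.263) or placebo serum 5 (0.80, FDR = 0.387), and also with totals of miRNA reads (0.65, FDR = 0.386) and with no filter beyond 1 read (FDR = 0.272). The 4 erythrocyte markers summed to 233362 to 381326 CPM in insulin-treated and 87066 to 159349 CPM in placebo sera, also without overlap, and their part in the result was not tested. The placebo sera are those of the comparison of genotypes. How many of all miRNAs separated insulin from placebo sera was not counted. MiR-140-3p averaged 27794 ± 5873 CPM (n = 4) under insulin, with an exact permutation p of 0.873. Thus 1 of 4 members passed, against 15.9% of 309 tested miRNAs.

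Under anti-sclerostin the 2 arms of miR-140 differed from placebo in opposite directions in WT serum, though neither passed the test over all miRNAs. MiR-140-3p read 46612, 37556, 43764 and 39726 CPM under anti-sclerostin and 30676, 26702, 19865, 34698 and 13656 CPM under placebo, without overlap. MiR-140-5p read 230.0, 181, 221 and 142 CPM and 293, 348, 399.5, 248 and 538 CPM, without overlap in the other direction. The log2 fold changes were 0.71 ± 0.38 (FDR = 0.451, exact permutation p = 0.0238) and −0.96 ± 0.53 (FDR = 0.464, exact permutation p = 0.0159). Their log2 ratio was 7.61 to 8.04 under anti-sclerostin and 4.66 to 7.09 under placebo. The 5p counts behind it were 8 to 33 reads and 19 to 77 reads. How many of all miRNAs separated these WT sera without overlap was not counted. In ZDF serum under anti-sclerostin the changes were 0.02 ± 0.37 for miR-140-3p and 0.20 ± 0.54 for miR-140-5p (FDR = 0.970 and 0.918). The interaction terms, −0.60 ± 0.53 and 1.15 ± 0.74, did not pass (FDR = 0.957 each). In these comparisons 0 of 4 members passed, against 5.57% of 305 tested miRNAs in WT sera, 8.03% of 299 in ZDF sera and 1.06% of 283 for the interaction.

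No member passed under PTH in serum. In WT sera miR-140-3p changed by 0.27 ± 0.42 and miR-140-5p by −0.54 ± 0.53, with 0 of 4 members and 1.08% of 278 tested miRNAs passing (FDR = 0.995 for each member). MiR-455-3p had 1 to 7 reads under PTH and 6 to 17 under placebo (−1.23 ± 0.67, exact permutation p = 0.0317). In ZDF sera the changes were −0.04 ± 0.37 and −0.28 ± 0.50 (FDR = 0.9999 and 0.909), with 0 of 4 members and again 1.08% of 462 miRNAs passing. For the interaction of genotype and PTH in serum, 0 of 4 members passed, with FDR of 0.956 to 0.992, against 2.25% of 267 miRNAs. None of the 4 had an unadjusted p under 0.05 in these 3 serum fits, and DESeq2 called none of them. Over all 32 sera miR-140-3p went most with miR-103-3p (r = 0.71), miR-107-3p (0.70) and miR-92a-3p (0.66). MiR-140-5p went with miR-185-5p (0.63), miR-15b-5p (0.60) and miR-106b-5p (0.54), and r between the 2 arms was −0.25.

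**Figure D5:**
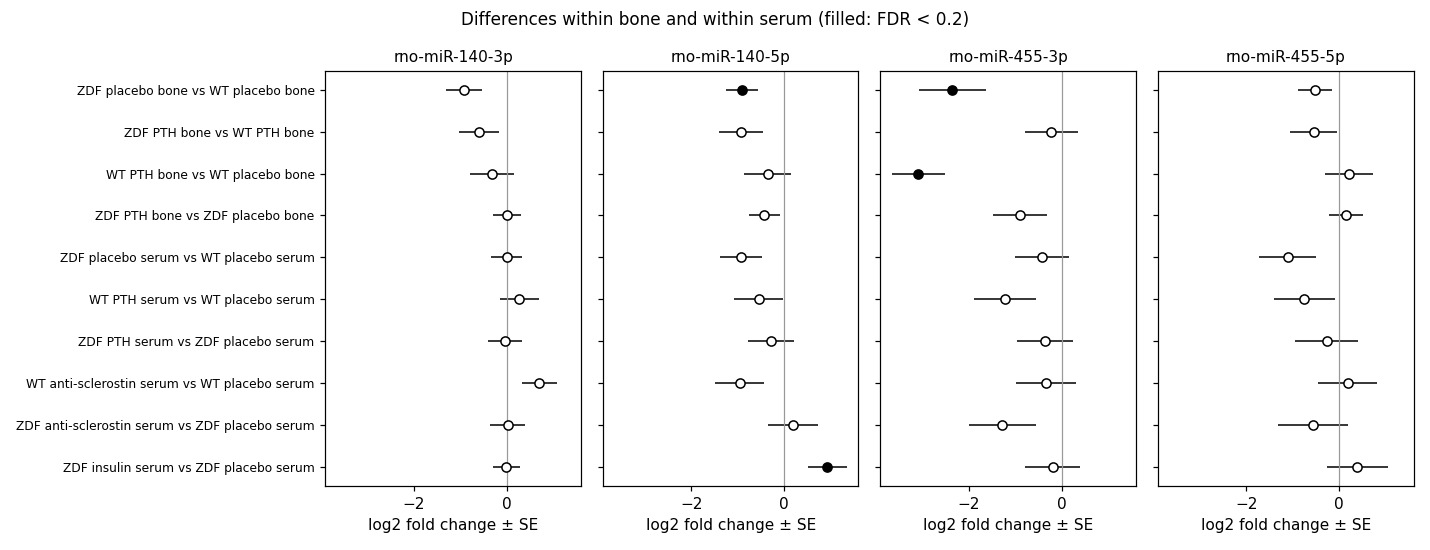
Log2 fold change with its SE (horizontal axis) of each member in the 10 comparisons within bone or within serum (rows), with filled circles for FDR < 0.2. The 4 filled values are miR-140-5p in ZDF placebo bone (−0.91) and in insulin-treated ZDF serum (0.94), and miR-455-3p in ZDF placebo bone (−2.36) and in WT PTH bone (−3.09).

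A list of 9 other miRNAs of chondrocytes, all of them in the files, was read beside the members. In ZDF against WT placebo bone 1 of 7 tested fell and 0 rose, namely miR-193b-3p (−1.36, FDR = 0.148), a regulator of chondrocyte differentiation, against 12.6% of all tested miRNAs. The median of the list was −0.29, and that of all tested miRNAs −0.06. In WT bone under PTH 1 of 7 rose, miR-148a-3p (1.40, FDR = 0.0550), and 2 fell, miR-193b-3p (−2.004, FDR = 0.0128) and miR-365-3p (−1.24, FDR = 0.154), with medians of −0.10 for the list and −0.09 for all and 14.2% of all tested miRNAs called. In ZDF bone under PTH 0 of 9 passed, against 0% of all, with a median of −0.38 against −0.06. In ZDF against WT bone under PTH 0 of 7 passed, against 5.36%, with −0.49 against 0.08. In serum miR-145-5p, which is known to target Sox9, was higher in ZDF than in WT placebo rats (1.04, FDR = 0.0608), as 1 of 8 tested, against 10.0% of all. It was lower under anti-sclerostin (−1.46, FDR = 0.0225) and insulin (−0.81, FDR = 0.0874) in ZDF rats, and miR-29a-3p was lower under insulin as well (−0.86, FDR = 0.0540). These were 1 of 7 tested against 8.03% of all under anti-sclerostin and 2 of 7 against 15.9% under insulin. The 3 serum comparisons share the ZDF placebo sera. No miRNA of the list passed in the PTH comparisons of serum or in WT serum under anti-sclerostin.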

How the data were processed

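Small RNA libraries of 32 serum and 16 ulna bone samples were grouped by genotype, treatment and tissue from their labels. The authors trimmed reads with cutadapt, mapped them with Bowtie to the rat genome and miRBase, and deposited raw, whole read counts per mature miRNA. RPM values relative to all reads, likewise deposited, gave the library totals. Their RPM relative to miRNA reads was not used.

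Counts were compared by the quasi-likelihood test of edgeR 4.0.16 (R 4.3.3) with TMM, miRNAs of at least 1 read, independent filtering on mean CPM (50 quantiles up to 0.95) and Benjamini-Hochberg FDR < 0.2. The fit shared information on spread between miRNAs of like abundance. In most comparisons the prior degrees of freedom were infinite, so that the spread followed abundance alone and not the single miRNA. Single levels were compared by two-sided exact permutation of log2(TMM CPM + 1), 56 tests in all, unadjusted. Overlap between groups was looked at for the members only, so its share over all miRNAs is not known. The tests were tried on simulated data. Alternatives were other scalings, filters and thresholds, DESeq2 1.42.0 and leaving out each library.

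The text names the 4 members, the 3 miRNAs most like each (mean of at least 10 reads) and 9 other chondrocyte miRNAs. Members and lists were chosen with earlier results of these data known. Bones and sera were treated as independent, since labels do not link them, although the methods say that most came from the same rats. In 82 pairs of libraries of a group, counts differed by more than counting noise (lowest chi-squared per degree of freedom 15.3).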

Additional observations from a re-analysis of the deposited data

Results flagged for a closer look

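Among 66 sets of levels or arm ratios, 1 for each member or hairpin in each group, 4 had an extreme library past Dixon's 95% value, and chance alone gives about 5%. MiR-455-3p in ZDF placebo bone 2 stood at 486 CPM, above 35.0 to 72.3 CPM in the other 3 bones. MiR-455-5p in WT PTH serum 3 was at 0 CPM, on 53249 miRNA reads, below 67.5 to 70.3 CPM in the other 4 sera, and a count of 0 there allows up to 56.3 CPM. MiR-455-5p in ZDF PTH serum 4 was at 98.6 CPM, on 8 reads, above 13.3 to 29.5 CPM. The log2 ratio of the miR-140 arms in WT anti-sclerostin serum 4 was 8.04, above 7.61 to 7.66 in the other 3 sera.

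The response of miR-455-3p to PTH in bone differed between ZDF and WT rats by 2.14 on the log2 scale in the interaction test (edgeR, FDR = 0.113), with ZDF placebo bone 2 among the bones compared. The spread in that fit followed abundance and not miR-455-3p itself.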

How the results depend on the processing

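No paired analysis was possible because the labels give no replicate numbers shared between groups. In WT bone under PTH, 1 member was called under every other scaling, filter, test and threshold and without any single library, and leaving out the 2 shallow bones, which was chosen after seeing the data, gave 2. In ZDF against WT placebo bone the count of members called was 0 with no filter beyond 1 read, 0 with filterByExpr, 0 at FDR < 0.05 1 with all bone groups in 1 fit, 3 with RLE, totals of miRNA reads or DESeq2, and 0 to 3 with a library left out. In ZDF against WT bone under PTH, DESeq2 and leaving out the shallow bones each called 1, and leaving out 1 library 0 to 1. Of all miRNAs, 14 were called there in the main fit, 6 to 74 under other settings and 8 to 58 with a library left out. In ZDF bone under PTH leaving out 1 library gave 0 to 2 members, and 0 to 52 of all miRNAs. For insulin the count was 0 with totals of miRNA reads, 0 with no filter and 0 at FDR < 0.05, and 0 to 1 with a library left out. The interaction in bone gave 0 with RLE, totals, DESeq2, no filter, filterByExpr, FDR < 0.05 and the shallow bones left out, and 0 to 1 with a library left out. In ZDF PTH bone against serum it was 4 with totals of all reads, 3 with RLE, totals of miRNA reads, DESeq2, filterByExpr or all groups in 1 fit, and 2 to 4 with a library left out. The cause was not tested.

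The direction of miR-140-3p turned under several settings. For ZDF against WT bone under PTH it was 0.031 without the shallow bones (−0.59 with them). In ZDF bone under PTH it was −0.012 with totals of miRNA reads. Under insulin it was 0.13 with RLE, 0.13 with DESeq2 and 0.082 with all sera in 1 fit. Against serum, WT placebo bone gave −0.081 with RLE, −0.030 with totals, −0.081 with DESeq2 and −0.23 with filterByExpr. With totals of all reads ZDF placebo, WT PTH and ZDF PTH bones gave 2.17, 0.27 and 1.75. With a library left out it ranged from −0.11 to 0.42 for WT PTH serum, −0.12 to 0.26 for WT placebo bone against serum, −0.15 to 0.22 for ZDF PTH bone, −0.22 to 0.015 for ZDF PTH serum, −0.15 to 0.23 for ZDF anti-sclerostin serum, −0.069 to 0.17 for insulin and −0.17 to 0.20 for ZDF against WT placebo serum. MiR-140-5p in ZDF anti-sclerostin serum ranged from −0.24 to 0.49. MiR-455-3p ranged from −0.61 to 0.10 for ZDF against WT PTH bone, −1.26 to 0.54 for ZDF PTH against placebo bone and −0.19 to 1.64 for ZDF placebo bone against serum. MiR-455-5p ranged from −0.036 to 0.33 for WT and −0.061 to 0.26 for ZDF bone under PTH.

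Counts of all miRNAs called varied more: in ZDF against WT placebo bone 29 became 0 to 34 under other settings and 7 to 108 with a library left out, in WT bone under PTH 55 became 12 to 57 and 32 to 117, and under insulin 49 became 18 to 82 and 21 to 64. For the interaction in bone 8 became 0 to 9 and 1 to 40. In ZDF PTH bone against serum 354 became 155 to 380 and 319 to 353. By Spearman's rho 1 of the 3 most alike miRNAs was kept for miR-140-3p, miR-140-5p and miR-455-3p in bone and for miR-140-5p in serum. Depth limited both arms of miR-455 in serum.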
